A study of Mus musculus with 6 samples.

Results

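Among the genes that RAW264.7 macrophages read out more strongly in the extract of a zinc alloy scaffold, 53 had no read at all in any untreated library and at least 1 read in every treated library. These Control-silent genes were chosen by that rule from a deposited table of 345 genes, and they make up 15.4% of it and 18.5% of the 287 genes with a higher mean in the treated group. The rule left out 5 genes by name (Rsad2, Nqo1, Hspb8, Hspa2 and Ptpn5), but none of them was at 0 in all Control libraries, so the count did not depend on it. RAW264.7 is an established line of mouse macrophages. Control was 3 libraries of cells without added extract, and the G scaffold group was 3 libraries of cells kept for 48 h in diluted extract of a Zn-0.8Li scaffold with the gyroid pore unit. All 6 libraries came from the same line, with no transgene or other treatment named, and the labels do not say whether the replicates were separate cultures, so a standard deviation here measures the spread between libraries.

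Cells keep many genes silent that belong to other tissues, such as meiotic genes outside the germline or cornified envelope genes outside the epidermis. Zinc entering a cell is sensed by the transcription factor MTF-1, which binds metal response elements in promoters, while AP-1, a dimer of Fos and Jun family proteins, binds another short element after growth, cytokine and stress signals. Macrophages use both factors, and neither is specific to the tissues in which the Control-silent genes are usually studied.

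The values are normalized counts, which are the reads of a gene divided by one size factor per library. All values (100%) were whole multiples of the value of 1 read, which lay between 0.955 and 1.08, so a normalized count was close to 1 read. Over the listed genes the libraries held from 88836 to 156029 reads, which is not their whole depth. The table lists genes that passed the thresholds of the study only, so a gene at 0 in Control that rose by less was not analysed here. The lowest of the Control-silent genes had 14 reads over the 3 G scaffold libraries together. The counts of 0 are not proof of absence, since 0 reads allow up to 3 reads in a library, and changes are therefore given as lower bounds against 3 reads in each Control library (3.03 normalized counts). These bounds use the measured G scaffold mean, so they leave out counting error and spread in the G scaffold libraries. In bulk RNA, a few cells with a high level and many cells with a low level cannot be told apart.

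Of the 53 genes, 51 are annotated as protein coding, 1 as a lincRNA and 1 as a miscellaneous RNA, and 52 carry a gene name. They were spread over 18 chromosomes, with at most 7 on one, chromosome 5. The G scaffold means ran from 4.58 to 102.5 normalized counts with a median of 6.56, and 15 genes reached 10. These 15 held 66.5% of the summed means, and the 4 highest held 36.7%. In 33 genes every G scaffold library had more than 3 reads, and in the other 20 at least 1 library was within the 3 reads that a count of 0 allows. In the fit of limma over all listed genes, 53 of the 53 were called higher (log2 fold change of 1 or more and adjusted p of 0.05 or less), beside 82.6% of all listed genes. The 53 were also called with edgeR and with DESeq2 (83.2% of all listed genes each), with a replicate block (82.3%) and with TMM factors (38.8%). Their G scaffold libraries all lay above the Control libraries, as in 82.9% of the listed genes. The same contrast chose the genes, so nothing is read from these counts.

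The most reads belonged to Efcab6, which encodes a calcium-binding protein with EF hands known mainly from testis. Its normalized counts were 88.7, 97.4 and 121 in replicates 1 to 3 of the G scaffold group, with a mean of 102.5 ± 16.9 (SD, n = 3), and 0 in each Control library. Every G scaffold library was far above the 3 reads, and the mean was at least 33.8-fold higher than in Control. Its 313 reads have a 95% exact Poisson interval from 279 to 350, which covers counting error only.

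Next came Tex19.1, a gene of germ cells, placenta and embryonic stem cells that helps to restrain retrotransposons. Its normalized counts were 69.6, 41.5 and 57.8 in replicates 1 to 3 of the G scaffold group and 0 in Control, at least 18.6-fold higher. Replicate 2 was the lowest, and all 3 libraries were well above the floor. Sprr1a encodes a small proline-rich protein that is crosslinked into the cornified envelope of keratinocytes. It had 43.3, 46.3 and 53.8 normalized counts in the G scaffold libraries and 0 in Control, at least 15.8-fold higher. Grhl2, a grainyhead-like transcription factor that maintains epithelial identity, had 40.3, 43.4 and 53.8 and was at least 15.1-fold higher. Both epithelial genes were lowest in replicate 1 and highest in replicate 3, with coefficients of variation of 11.3% and 15.4%. Tex19.1 and Sprr1a have close relatives in the genome, and the counting method is not given in the sources used here, so their reads may be shared with such copies.

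**Figure D1:**
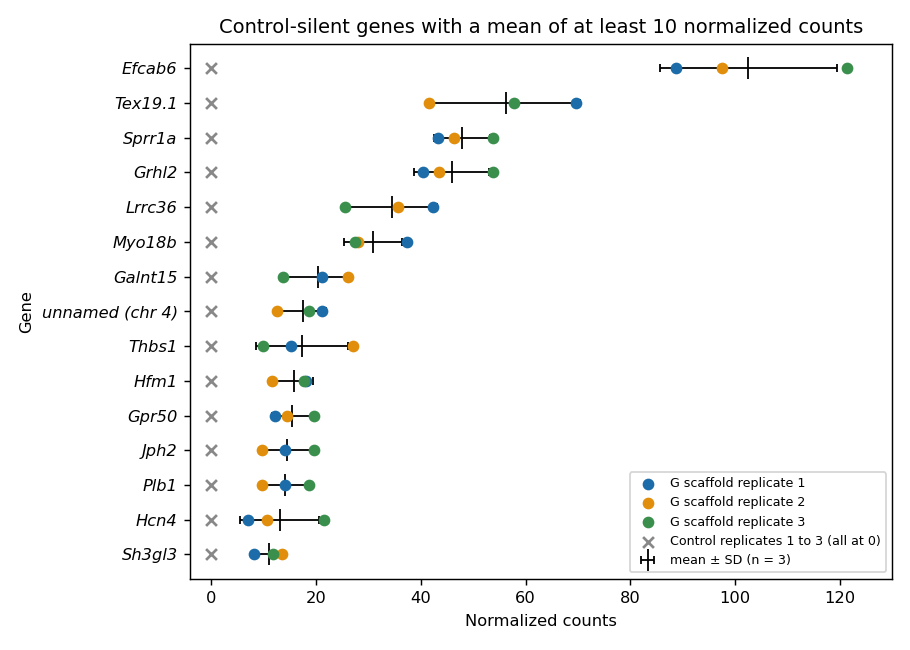
Normalized counts (x axis) of the 15 Control-silent genes with a G scaffold mean of at least 10 (y axis); circles are the G scaffold replicates, bars the mean ± SD of 3, and crosses the Control libraries. All crosses lie at 0, while the circles run from 7.06 for Hcn4 to 121 for Efcab6.

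RefSeq promoter windows of build GRCm38.p6 (250 bases before to 50 after a start site) were matched by symbol for 34 of the 53 genes. The other 19 had no window and were not searched. Among them are Efcab6, Grhl2, Lrrc36, Myo18b, MGP_SPRETEiJ_G0027882 and Thbs1, which have some of the highest means. Of the windows of Control-silent genes, those of Tex19.1 and Sprr1a each held a pair of AP-1 elements, and they are shown here for that reason. They are shown with those of Galnt15 and Plb1, the next highest of the searched genes with an AP-1 match. The capitals mark the AP-1 letters (TGAGTCA or TGACTCA), and each window is written from 5′ to 3′ on the strand of its gene. The windows lie at chr11:121145893-121146192 on the plus strand, chr3:92485832-92486131 on the minus strand, chr14:32028853-32029152 on the plus strand and chr5:32238834-32239133 on the plus strand.
Tex19.1: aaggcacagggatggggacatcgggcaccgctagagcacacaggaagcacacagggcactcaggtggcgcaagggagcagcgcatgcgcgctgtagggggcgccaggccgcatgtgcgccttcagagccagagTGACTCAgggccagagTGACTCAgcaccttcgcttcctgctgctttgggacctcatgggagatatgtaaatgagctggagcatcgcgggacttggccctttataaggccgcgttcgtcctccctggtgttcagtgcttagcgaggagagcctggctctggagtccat
Sprr1a: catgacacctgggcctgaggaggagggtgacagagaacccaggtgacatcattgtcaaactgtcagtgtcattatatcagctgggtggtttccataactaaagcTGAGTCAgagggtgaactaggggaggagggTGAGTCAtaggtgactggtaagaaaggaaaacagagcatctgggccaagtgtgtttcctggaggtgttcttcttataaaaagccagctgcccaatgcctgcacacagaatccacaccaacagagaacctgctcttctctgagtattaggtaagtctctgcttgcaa
Galnt15: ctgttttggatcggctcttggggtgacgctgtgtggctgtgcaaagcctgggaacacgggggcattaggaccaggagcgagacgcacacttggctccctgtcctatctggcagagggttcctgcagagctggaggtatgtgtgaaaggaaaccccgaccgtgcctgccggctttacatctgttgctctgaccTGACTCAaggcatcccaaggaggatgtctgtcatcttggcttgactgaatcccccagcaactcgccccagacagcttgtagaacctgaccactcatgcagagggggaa
Plb1: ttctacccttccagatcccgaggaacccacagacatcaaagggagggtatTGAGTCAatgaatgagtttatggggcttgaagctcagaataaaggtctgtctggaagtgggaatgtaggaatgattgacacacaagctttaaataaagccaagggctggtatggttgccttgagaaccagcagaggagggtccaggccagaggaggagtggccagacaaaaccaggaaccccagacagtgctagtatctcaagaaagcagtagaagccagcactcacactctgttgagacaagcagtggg

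In Tex19.1 the pair of AP-1 matches begins at positions -117 and -101 from the start site. In Sprr1a it begins at -146 and -116. A window with 2 or more AP-1 elements was found in 73 of 32851 windows of all genes (0.222%), in 2 of 191 windows of the other higher genes and in 2 of 47 windows of the Control-silent genes. A pair was not among the features fixed beforehand, so these counts are a description only. In each of these promoters 1 AP-1 match also lies inside a match to the antioxidant response element core (TGACNNNGC), as TGACTCAGC in Tex19.1 and as GCTGAGTCA in Sprr1a, so these are not separate matches. Both windows also hold a metal response element core (TGCGCNC or TGCACNC), which begins at -166 in Tex19.1 and at -18 in Sprr1a. These are letter matches in the reference genome, not binding sites.

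Across the 34 genes with a window, an AP-1 element was found on either strand in 8 (Tex19.1, Sprr1a, Galnt15, Plb1, Gpr3, Sgms2, Eml1 and Slc17a2). This is 23.5%, beside 11.2% of 152 other higher genes and 5.95% of 27025 genes with a window. The metal response element core was found in 16 of the 34, or 47.1%, beside 33.6% and 28.2%. With only the bases before the start site searched, the counts fell to 6 genes for AP-1 and 12 for the metal response element core. Such counts are not given here for the comparison genes, so these are not to be set against the shares above. Median GC content of the windows was 57.3% in the 34 genes, 60.7% in the 152 other higher genes and 52.75% in all genes. The shares were not adjusted for this. Genes with several start sites have more windows to search, and counted by window the shares were 9 of 47 windows against 5.20% of all windows for AP-1, and 46.8% against 25.7% for the metal response element core. The antioxidant response element core and TATAAA were each found in 17.6%, beside 17.1% and 18.4% of the other higher genes and 14.0% and 15.7% of all genes. The cAMP response element (TGACGTCA) was found in Areg only, at -61, and the heat shock element in Hcn4 only. No window held the interferon response element, which 8.55% of the other higher genes and 3.99% of all genes had. None of these shares was tested, since genes of one table are not replicates.

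**Figure D2:**
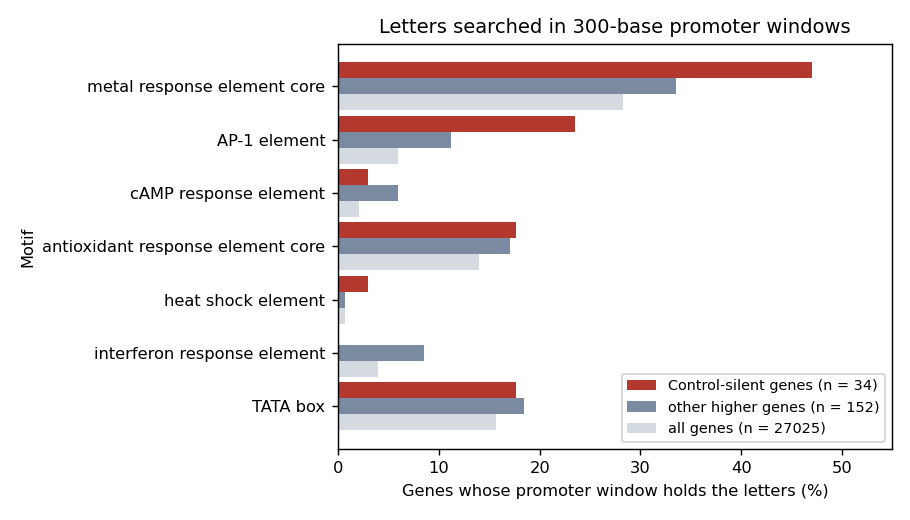
Share of genes (x axis, %) whose promoter window holds each motif (y axis), for 34 Control-silent genes, 152 other genes higher in the G scaffold group and 27025 genes with a RefSeq window. The AP-1 bars stand at 23.5%, 11.2% and 5.95%, and the interferon response element bar of the Control-silent genes is at 0.

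Levels of different genes can be set in order only per length, and gene lengths ran from 320 to 12996 bases. On the scale of normalized counts per kb of gene length the order changed, and 9 of the 15 highest genes by count were among the 15 highest per kb. Sprr1a came first with 59.3 ± 6.71 per kb (SD, n = 3), with a gene length of 806 bases. Tex19.1 followed with 30.1 ± 7.53 per kb, and no library of it reached the lowest Sprr1a library. Gm24146, an annotated miscellaneous RNA of 320 bases, had 25.4 ± 19.8 per kb. Efcab6 came after it with 15.0 ± 2.47 per kb and Lrrc36 next with 13.5 ± 3.33 per kb, and these ranks were not separated by more than the spread of the libraries. Grhl2 had 8.33 ± 1.29 per kb, with all its libraries below those of Lrrc36. Of the 52 pairs of neighbours in this order, 2 had libraries that did not overlap (Sprr1a over Tex19.1, and Lrrc36 over Grhl2). The other neighbours did not differ beyond their spread, while genes farther apart in the order could be separated, such as Efcab6 and Cda, which had 6.65 ± 0.807 per kb. The lowest was Trank1 with 0.400 per kb.

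**Figure D3:**
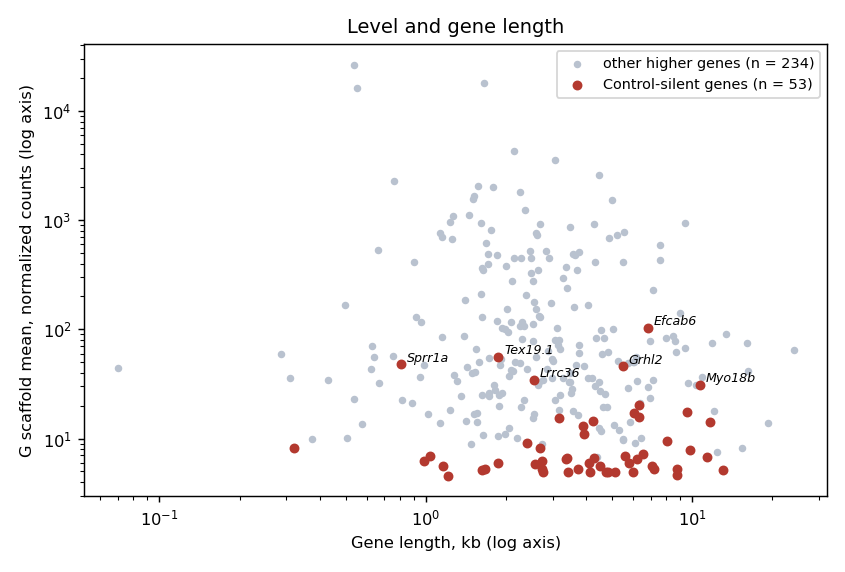
G scaffold mean in normalized counts against gene length in kb (both axes logarithmic) for the 53 Control-silent genes and the 234 other higher genes. The Control-silent genes sit along the lower edge, between 4.58 and 102.5 normalized counts, and Sprr1a stands out as a short gene at 47.8.

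Against the other higher genes, the Control-silent genes were longer, with a median gene length of 4241 bases against 2593. Among the 148 other higher genes within the same range of G scaffold means the median was 2978 bases. The median level per kb was 1.94 normalized counts in the Control-silent genes and 24.4 in the other higher genes. In the 148 genes within the same range of means it was 11.7. Zeros in Control chose the genes, so these values are a description and no test was made.

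The genes were then grouped by the tissue in which each is best known, assigned from textbook knowledge after the names were seen. The testis and germ cell group has 6 genes (Efcab6, Tex19.1, Hfm1, Gpr3, Adcy10 and Mei1), with a summed level of 191 ± 26.3 normalized counts (SD, n = 3). Hfm1, a helicase of meiotic crossover formation, had 18.1, 11.6 and 17.6 normalized counts in the G scaffold libraries and was at least 5.21-fold higher. Mei1, which is needed for meiotic DNA breaks, had 8, 1 and 6 reads, so that replicate 2 rests on a single read. Gpr3, a constitutively active receptor that holds oocytes in meiotic arrest, had 6.21 ± 1.96 normalized counts. Adcy10, the bicarbonate-sensitive adenylyl cyclase of sperm, had 5.29 ± 3.31. Per kb of gene length, Tex19.1 (30.1) and Efcab6 (15.0) led the group, and Hfm1 had 2.50, Gpr3 2.28, Mei1 1.03 and Adcy10 0.606 normalized counts per kb.

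The epithelial group has 7 genes, among them Sprr1a, Grhl2, Plb1, Gucy2c, Pcdh1 and Areg, with a summed level of 131 ± 13.5 normalized counts. Plb1, a phospholipase of the intestinal brush border, had 14.1, 9.65 and 18.6 normalized counts in the G scaffold libraries and was at least 4.66-fold higher. Gucy2c, the intestinal receptor for guanylin, and the protocadherin gene Pcdh1 had 4.92 ± 1.73 and 4.59 ± 0.597. Areg encodes amphiregulin, a ligand of the epidermal growth factor receptor, and had the lowest mean count of the 53, with 4.58 ± 0.479 normalized counts, at least 1.51-fold higher.

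Genes of heart and skeletal muscle made up another group of 6 (Myo18b, Jph2, Hcn4, Dok7, Kcnj12 and Mybpc1), with a summed level of 74.9 ± 17.7. Myo18b, an unconventional myosin needed for sarcomere assembly, had 37.3, 28.0 and 27.4 normalized counts in the G scaffold libraries, at least 10.2-fold higher. Jph2, a junctophilin that ties the plasma membrane to the sarcoplasmic reticulum, had 14.1, 9.65 and 19.6, at least 4.77-fold higher. Hcn4, the pacemaker channel of the sinoatrial node, had 7.06, 10.6 and 21.5, at least 4.31-fold higher. Its libraries differed by 3.05 times between the lowest and the highest, and its coefficient of variation of 57.7% was above the 27.4% that counting alone gives at its reads. Without G scaffold replicate 3 the bound for Hcn4 was 2.91-fold. Dok7, an activator of the receptor kinase of the neuromuscular junction, had 6.59 ± 2.36. Kcnj12, an inward rectifier potassium channel gene, and Mybpc1, a slow myosin-binding protein, had 4.95 ± 2.68 and 4.92 ± 3.53, with 2 reads in replicate 2 each.

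The nervous system and endocrine group also has 6 genes (Gpr50, Sh3gl3, Nell2, Prph, Sstr5 and Rtbdn), with a summed level of 49.3 ± 7.58. Gpr50, an orphan relative of the melatonin receptors, had 12.1, 14.5 and 19.6 normalized counts in the G scaffold libraries, at least 5.07-fold higher. Sh3gl3, an endophilin of membrane traffic, had 8.06, 13.5 and 11.7, at least 3.66-fold higher. Nell2, a secreted neuronal glycoprotein, had 14, 1 and 5 reads. That was the widest spread of the 53 genes, with a coefficient of variation of 101%, and its mean rests largely on replicate 1. Prph, an intermediate filament of peripheral neurons, had 5.94 ± 2.70, the somatostatin receptor gene Sstr5 had 5.26 ± 1.22, and Rtbdn, a riboflavin-binding protein of the retina, had 5 reads in each G scaffold library. Col1a1, the main collagen of bone and fibroblasts, was placed by itself and had 7.21 ± 2.03 normalized counts, at least 2.38-fold higher.

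**Figure D4:**
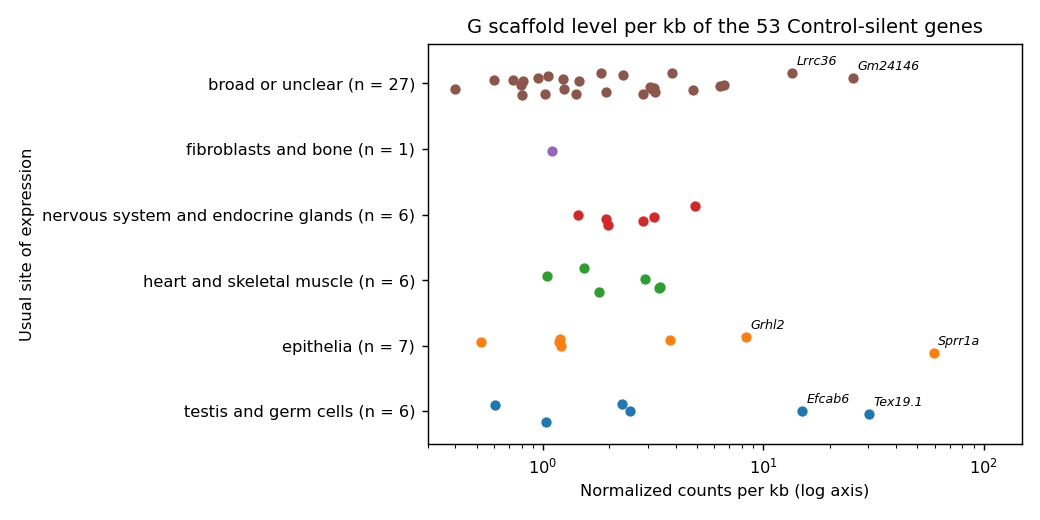
G scaffold mean in normalized counts per kb of gene length (x axis, log) for each of the 53 Control-silent genes, grouped by the tissue in which it is best known (y axis). Each point is 1 gene; Sprr1a at 59.3 per kb and Tex19.1 at 30.1 per kb lie farthest to the right.

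The other 27 genes are broadly expressed or of unclear site, with a summed level of 233 ± 6.90 normalized counts. Lrrc36, a leucine-rich repeat protein, had 42.3, 35.7 and 25.5 normalized counts in the G scaffold libraries, at least 11.4-fold higher. Galnt15, a transferase that starts mucin-type sugar chains, had 21.2, 26.0 and 13.7, at least 6.70-fold higher. Both were lowest in replicate 3. Thbs1 encodes thrombospondin-1, a matrix glycoprotein that limits blood vessel growth, and had 15.1, 27.0 and 9.79 normalized counts, at least 5.71-fold higher. It was highest in replicate 2, and its coefficient of variation was 50.9%. Without G scaffold replicate 2 the bound for Thbs1 was 4.11-fold. An unnamed gene, MGP_SPRETEiJ_G0027882, had 21.2, 12.5 and 18.6 normalized counts, at least 5.75-fold higher.

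By role, signalling at the cell surface was represented by receptors, ion channels and a transporter. The receptor genes Il1r1, through which interleukin-1 acts, and Igf1r, the receptor of insulin-like growth factors, had 5.92 ± 2.66 and 4.91 ± 0.924 normalized counts. Il1r1 had 8, 7 and 3 reads, so that replicate 3 was within the floor, while Igf1r had 4, 5 and 6. Gpr55, a receptor for lysophosphatidylinositol, had 5.23 ± 3.13. Of the ion channel and transporter genes not yet given, Cacna1h, a low-voltage calcium channel, had 7.89 ± 2.98 and Slc17a2, of a phosphate transporter family, had 4.90 ± 1.92. Besides Grhl2, the regulators of transcription held Prdm1, a transcriptional repressor that drives terminal differentiation of lymphocytes. Prdm1 had 4, 6 and 11 reads in the G scaffold libraries, a mean of 6.86 ± 3.49 normalized counts.

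Among enzymes, Cda, the cytidine deaminase of pyrimidine salvage, had 6.87 ± 0.835 and Sgms2, a sphingomyelin synthase, had 6.56 ± 1.11 normalized counts. The ubiquitin ligase gene Trim17 had 5.21 ± 3.04. Intracellular signalling was represented by Plekha6, Rab44, Fam83g and Arhgap42, with means from 5.25 for Arhgap42, a GTPase-activating protein, to 6.84 for Plekha6. The microtubule-associated gene Eml1 had 9, 1 and 7 reads. Means of the remaining genes ran from 5.19 for Trank1 to 9.18 for Tmem179, and they comprise these 2 with Bcl2l15, Gm24146, 4931409K22Rik, 4930412F09Rik, Tceal8, Tmem52 and Bpifb6.

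The median coefficient of variation over the 3 G scaffold libraries was 34.4%, and counting alone gives a median of 38.7% at these read numbers. Gene by gene, the coefficient was above that of counting alone in 30 of the 53. A coefficient from 3 libraries is imprecise, and the number that counting alone would give was not worked out. The spread is therefore not placed at or above the level of counting. The median coefficient was 25.0% in the genes with a mean of at least 10 and 40.1% in the others. In 4 genes the coefficient exceeded that of counting by more than 2 times, namely Nell2 (2.62 times), Gm24146 (2.25 times), Thbs1 (2.14 times) and Hcn4 (2.11 times). Gm24146 had 2, 8 and 15 reads in G scaffold replicates 1, 2 and 3. The sums over all 53 genes were 689.6, 634 and 738 normalized counts in replicates 1 to 3. Replicate 2 was the lowest, and it had the highest value of the 3 in 11 genes, against 22 in replicate 1 and 20 in replicate 3. These genes held between 0.438% and 0.483% of the reads of the listed genes in the G scaffold libraries.

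A further 16 higher genes had 1 read in 1 Control library and none in the others, with a median G scaffold mean of 10.7 normalized counts. The highest of these were Atp1b2 with 168 ± 28.1, Rasl11b with 49.8 ± 3.35, Atp13a4 with 33.8 ± 3.88, Hhipl2 with 32.8 ± 7.65 and Col5a3 with 29.6 ± 7.57 (SD, n = 3). Atp1b2, a subunit of the sodium pump, therefore lay outside the rule by a single read in Control replicate 3 and had more normalized counts than any of the 53 genes inside it. Per kb it had 41.3 normalized counts, below the 59.3 of Sprr1a. Just inside the rule were Nell2, Eml1 and Mei1, with 1 read each in G scaffold replicate 2, while the lowest totals, 14 reads each over the G scaffold libraries, belonged to Areg and Pcdh1. In the 6 genes with 3 Control reads the median was 13.1 normalized counts. A gene with more Control reads needed a higher G scaffold mean to pass the thresholds of the table, so nothing is read from these medians.

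**Figure D5:**
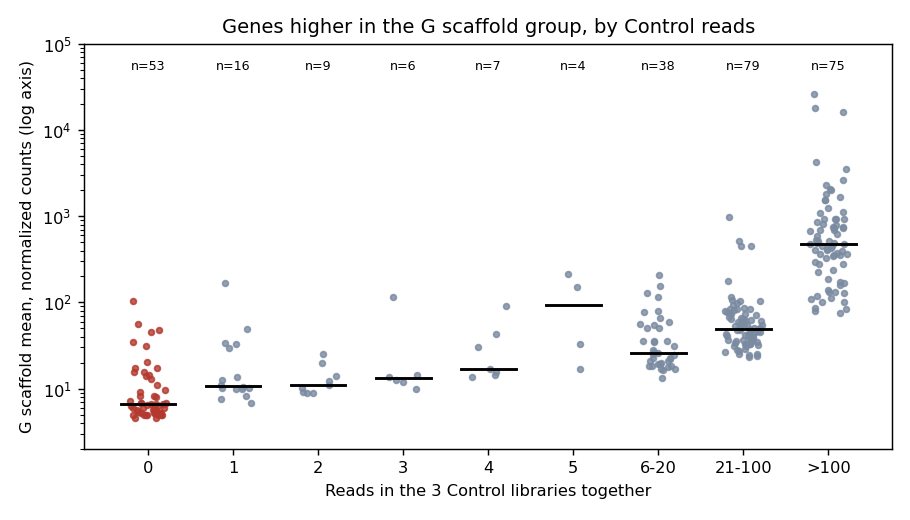
G scaffold mean in normalized counts (y axis, log) of the 287 higher genes, by the reads they had in the 3 Control libraries together (x axis); points are genes and bars are medians. The 53 genes at 0 reads have a median of 6.56 and the 16 genes at 1 read a median of 10.7.

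Positions are those of the SPRET/EiJ annotation, from which all 53 identifiers come, as do those of 329 of the 345 listed genes. Another listed gene lay within 100 kb of 8 of the 53 (15.1%), beside 15.8% of the other higher genes. Lrrc36 (chromosome 8 from 105028312 to 105082990) starts 68 bases from Kctd19, which runs the opposite way, so the annotated genes lie head to head. Kctd19 had 4.05 ± 3.57 normalized counts in Control against 80.4 ± 27.7 with the extract, so both genes of this pair were higher. The unnamed gene (chromosome 4 from 152066508 to 152126880) ends 2285 bases before Tmem52 on the same strand, and both are Control-silent, with 17.4 ± 4.43 and 5.58 ± 2.30 normalized counts. Cacna1h and Sstr5, both on chromosome 17 and 57.4 kb apart on the same strand, also form a pair of Control-silent genes.

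Other neighbours had reads in Control. Hcn4 ends 2349 bases from the end of Neo1, which runs towards it and had 276 ± 30.2 normalized counts in Control against 589 ± 72.5 with the extract. Slc17a2 lies 14.5 kb beyond Trim38 on the same strand, and Trim38 had 0.998 ± 0.958 and 14.5 ± 8.42. 4931409K22Rik ends 2450 bases before the start of Asb10 on the same strand, and Asb10 was lower in the G scaffold group, at 131 ± 23.4 in Control and 55.7 ± 2.23. Whether the counting used strand is not given in the sources used here. In the RefSeq annotation of GRCm38.p6, 4 of 51 matched genes overlap another protein-coding gene (Cacna1h, 4930412F09Rik, Fam83g and Trim17), beside 12.9% of 210 other higher genes, and their reads may include those of the overlapping gene. The part of neighbouring transcription in these values was not tested.

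Markers of other cell types were looked up among the listed genes. Of 15 epithelial and keratinocyte markers 2 are listed, both Control-silent (Grhl2 and Sprr1a), and of 10 germ cell and early embryo markers only Tex19.1 is listed. Of 10 fibroblast and osteoblast markers Col1a1 is listed, and of 10 neuron markers Tubb3, with 0.318 normalized counts in Control against 10.5 with the extract. Of 5 endothelial markers Vwf is listed, at 23.1 and 75.3. None of 10 muscle, 7 lymphocyte, 5 neutrophil and 5 dendritic cell markers is listed. Of 10 macrophage markers Mpeg1 is listed and had 9263 normalized counts in Control against 4530.0 with the extract. Markers outside the table have no value here, so the part of other cells in these reads was not tested.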

How the data were processed

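RNA sequencing had been done on 3 Control and 3 G scaffold libraries of RAW264.7 cells. The authors deposited 1 table of 345 genes that passed their thresholds, with read counts divided by a size factor per library (normalized counts, a signal unit), gene lengths and positions. The authors also made and deposited group means, a log2 fold change of the group means, and a p-value and adjusted p-value for each gene from their own comparison, none of which were used. The submitters' processing notes name GRCm38 and mm10, whereas the identifiers and positions of the table are those of a SPRET/EiJ annotation. The aligner, the counter and the use of strand are not given in the sources used here.

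Whole reads were recovered by dividing each value by that of 1 read (tolerance 0.01). The signal values were fitted as log2(value + 1) over all 345 genes with limma 3.58.1 in R 4.3.3, without a filter or block. P-values were adjusted by the Benjamini-Hochberg method. A call needed an adjusted p of at most 0.05 and an absolute log2 fold change of at least 1. The fit was tested on simulated data. Alternatives were edgeR 4.0.16 and DESeq2 1.42.0 on recovered reads, other pseudocounts, scalings, filters, fold limits and rules, and each library left out. Intervals are exact Poisson intervals (95%) and cover counting error only. No set of genes was tested.

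The genes and the lists were chosen with earlier results of these data known, and tissue and role groups were made after the names were seen. Every named gene is given once, except 1 that is not reported here. Values in each library are given where the G scaffold mean is at least 10, and the genes just outside the rule are the 5 with the highest means among those with 1 Control read. Marker lists of macrophages and 9 other cell types were looked up by symbol.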

Additional observations from a re-analysis of the deposited data

How the results depend on the processing

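The number of Control-silent genes depends on where the line is drawn. It was 96 with up to 3 reads allowed in each Control library and 33 with more than 3 reads required in each G scaffold library, against 53. It lay between 53 and 64 with 1 library left out, and was 64 without Control replicate 3. Limma called 15 of them with a pseudocount of 10 and 15 when genes with a mean under 5 over all libraries were dropped, which takes the other 38 out of the test. With 1 library left out it called between 53 and 53, and with edgeR, DESeq2, other scalings and other fold limits 53. For the other pseudocounts, the filters, column totals, other fold limits and left-out libraries, the share called over all listed genes is not given here. These counts therefore cannot show whether the fall with a pseudocount of 10 was particular to the Control-silent genes. A filter of 10 in every library leaves none of these genes and gives no value. The median level was 1.94 on the scale per kb and between 6.36 and 7.40 normalized counts with 1 library left out. The median lower bound was 6.49-fold against 3 reads over the Control group together, in place of 2.16-fold, and between 2.10-fold and 2.44-fold with 1 library left out. Another listed gene lay within 10 kb of 5 genes (9.43%), beside 5.13% of the other higher genes. Within 1 Mb (1000 kb) the number was 23 (43.4%), beside 44.9% of the other higher genes. TMM factors from this table lowered the median log2 difference over all 345 genes from 1.87 to 0.48 (to 1.27 with column totals), and 38.8% of all genes were called higher.

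Control and G scaffold libraries of the same replicate number gave deviations correlated by 0.00, -0.03 and -0.07 over genes. Those of different numbers gave from -0.06 to 0.09. The listed genes were chosen for a difference between the groups, so this cannot decide whether libraries were handled in pairs. With the replicate number as a block, limma called 53 of the 53 genes, and 82.3% of all listed genes.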

Other observations

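The reverse pattern, with no read in any G scaffold library and reads in every Control library, was found in 2 listed genes. Ap1m2, the medium chain of an epithelial clathrin adaptor, had 4, 5 and 5 reads in Control replicates 1, 2 and 3, a mean of 4.72 ± 0.720 normalized counts (SD, n = 3). The unnamed gene MGP_SPRETEiJ_G0018650 had 3, 6 and 5 reads, a mean of 4.75 ± 1.76. Both lie near the lowest means of the genes silent in Control.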
